A study of Homo sapiens with 3 samples.

Results

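Among the sites called for wild-type MECOM in HEK293T cells were peaks at genes of the large zinc finger family named ZNF, ZSCAN and ZKSCAN. Members were the genes of the peak list whose deposited symbol is one of these 3 prefixes followed by digits and at most 1 letter, each counted once. This gave 42 genes with 43 peaks, out of 2286 symbols and 3462 peaks in the whole list: 38 ZNF, 3 ZSCAN and 1 ZKSCAN gene. Of the members, 41 are protein-coding and 1, ZNF321P, is a transcribed pseudogene. The data are chromatin immunoprecipitation with sequencing (ChIP-seq), which counts DNA fragments pulled down with a protein. HEK293T is a human embryonic kidney line that carries the SV40 large T antigen, not a blood cell. The study had 3 groups of 1 library each, all precipitated with an antibody to the AM peptide tag: cells given the empty pMYS-IG vector, the tagged wild-type MECOM, or the tagged mutant R750W. Only the wild-type list was analysed here, so nothing was compared between groups and no value has a replicate. Member peaks were not checked here against the empty-vector library, so signal of the tag antibody alone was not separated from MECOM binding. The sources used here do not give the level of the introduced protein.

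Most proteins of this family carry tandem C2H2 zinc fingers, each a small fold around a zinc ion that reads a few bases of DNA. Many also have a KRAB domain at the front, which recruits TRIM28 and through it the histone methyltransferase SETDB1, so that chromatin at their targets, often transposable elements, is silenced. Others have a SCAN domain, with which such proteins pair up. The genes arose by repeated duplication and lie in clusters, above all on chromosome 19. MECOM is itself a C2H2 zinc finger protein with separate finger domains, the first binding a GATA-like sequence and the second an ETS-like one.

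The sequences below are start regions from RefSeq (GRCh38.p14), running from 250 bases before a gene start to 50 bases from it onward, read along the gene's strand. Of the 16 member windows that overlap a peak, they are the 4 with the most bases inside one and that of ZSCAN23, the member with the highest peak across a start. Capitals mark every match, on either strand, to AAGATAA (core of the GATA-like site of the first MECOM domain), GATGAG (core of the site of the second), GGAAGT (an ETS core), the palindrome known as the Kaiso motif (found at many housekeeping starts), or CCAATCAGG (which holds the CCAAT box read by the factor NF-Y). AAGATGGC, a YY1-like core, and the palindromic NRF1 motif were searched too and occur in none of them. Matching places of different motifs do not overlap in these windows. The windows of ZSCAN12 (chr6:28399698-28399997, minus strand), ZNF286A (chr17:15699502-15699801, plus strand) and ZNF557 (chr19:7069453-7069752, plus strand) lie wholly inside their peaks. That of ZNF414 (chr19:8514118-8514417, minus strand) shares 258 of 300 bases with its peak, and that of ZSCAN23 (chr6:28443442-28443741, minus strand) shares 127.
ZSCAN12: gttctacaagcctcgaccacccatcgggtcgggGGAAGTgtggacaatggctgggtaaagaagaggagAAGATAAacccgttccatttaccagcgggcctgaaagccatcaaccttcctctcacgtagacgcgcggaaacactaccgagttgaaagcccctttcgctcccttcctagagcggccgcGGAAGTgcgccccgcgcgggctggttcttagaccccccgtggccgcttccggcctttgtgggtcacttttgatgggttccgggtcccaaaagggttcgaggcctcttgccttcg
ZNF286A: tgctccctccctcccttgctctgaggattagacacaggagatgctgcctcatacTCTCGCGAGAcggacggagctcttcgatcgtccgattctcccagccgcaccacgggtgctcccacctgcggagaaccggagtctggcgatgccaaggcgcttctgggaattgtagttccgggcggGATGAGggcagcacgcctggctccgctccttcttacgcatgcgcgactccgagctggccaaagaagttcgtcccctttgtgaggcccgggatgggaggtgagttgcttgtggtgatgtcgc
ZNF557: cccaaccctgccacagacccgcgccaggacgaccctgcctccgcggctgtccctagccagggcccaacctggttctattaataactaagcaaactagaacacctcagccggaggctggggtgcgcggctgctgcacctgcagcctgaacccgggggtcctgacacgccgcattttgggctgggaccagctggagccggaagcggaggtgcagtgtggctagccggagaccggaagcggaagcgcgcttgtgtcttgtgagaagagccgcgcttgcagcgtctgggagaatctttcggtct
ZNF414: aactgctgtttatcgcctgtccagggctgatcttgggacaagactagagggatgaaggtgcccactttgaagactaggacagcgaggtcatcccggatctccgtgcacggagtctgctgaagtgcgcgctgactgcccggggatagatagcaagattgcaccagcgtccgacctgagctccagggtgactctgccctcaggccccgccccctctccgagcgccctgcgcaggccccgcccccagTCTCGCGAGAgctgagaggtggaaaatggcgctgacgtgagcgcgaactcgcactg
ZSCAN23: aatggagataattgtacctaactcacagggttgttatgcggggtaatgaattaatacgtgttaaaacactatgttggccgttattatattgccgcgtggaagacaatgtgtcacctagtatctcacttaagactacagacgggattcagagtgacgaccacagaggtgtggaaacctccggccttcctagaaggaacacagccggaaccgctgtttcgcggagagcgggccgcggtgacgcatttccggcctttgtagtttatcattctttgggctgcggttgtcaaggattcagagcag

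In ZSCAN12 the GATA-like core began 182 bases before the start, and the ETS cores 217 and 64 bases before it. In ZNF286A the second-domain core began 71 bases and the palindrome 196 bases before the start. The palindrome of ZNF414 began 6 bases before the start. All of these places lay inside the peaks, while the windows of ZNF557 and ZSCAN23 held none of the motifs.

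Each peak's fold enrichment is the authors' own value, the fragments at the peak over the local background with 1 added to both. The fragments and background behind each value were solved from that fold and its p-value. The fragments are thus the number behind the deposited fold, not a count over the whole width of the peak. Member peaks had 13 to 36 fragments, with a median of 17, over a background of 1.696 to 8.14 with a median of 2.61. Over the whole list the medians were 18 fragments and 2.92. The median fold of the 43 member peaks was 5.21 (95% order-statistic interval 4.44 to 5.55), against 4.82 for the whole list, with quartiles of 4.13 and 5.86 against 4.06 and 5.67. The intervals on single peaks below are exact 95% Poisson intervals, which cover only the counting error of the pulled-down fragments. By that measure 5 member peaks lay wholly above the list median and 2 wholly below it, where 5.46% and 4.68% of all peaks did. The other 36 could not be told from it at this depth, and no test was made between members and other peaks because peaks of 1 library are not replicates.

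**Figure D1:**
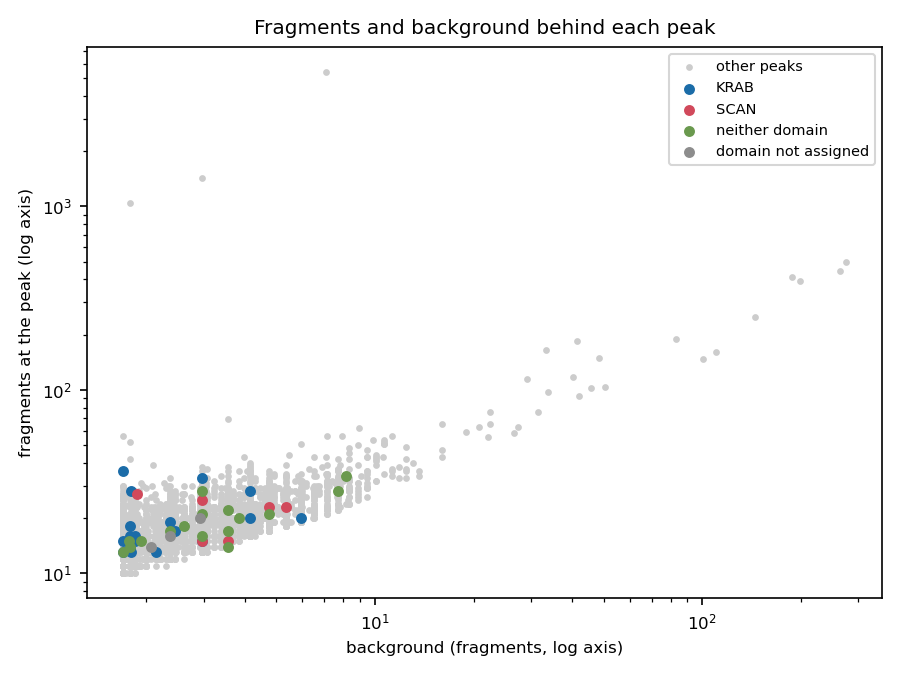
Fragments at each peak against its background, both on log axes. Pale grey points are the other peaks of the list, including those without an assigned gene. The 43 member peaks are coloured by domain, with darker grey for the 3 members whose domain was not assigned. Members sit at 13 to 36 fragments within the main body of the list.

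The highest member peak belonged to ZNF484, a KRAB zinc finger gene on chromosome 9. It lay at chr9:92877553-92877978, from 60 to 485 bp inside the gene, with 36 fragments over a background of 1.696 (13.7-fold, 9.72 to 18.9). That background is the lowest of the list, shared by 12.2% of all peaks and by 4 of the 43 member peaks. The interval of ZNF484 lay wholly above those of 37 of the other member peaks. ZNF264, a KRAB gene on chromosome 19, followed at 10.4-fold (7.01 to 14.8) with a peak 8902 bp inside the gene. ZSCAN23, whose product has a SCAN domain, reached 9.74-fold (6.54 to 14.02) at chr6:28442960-28443568, across its start. ZNF862, which encodes a KRAB protein, had 33 fragments and 8.58-fold (5.98 to 11.9) from 60 to 838 bp inside the gene. ZNF358 reached 7.31-fold (4.95 to 10.5). These 5 are the peaks wholly above the list median, and their intervals overlap one another.

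Next came ZNF738 (6.84-fold), ZNF263 (6.56), ZNF684 (6.12), ZNF530 (5.98), ZNF708 (5.93), ZNF286A (5.93) and ZNF608 (5.78), which complete the 12 highest. ZNF263 encodes a protein with a SCAN and a KRAB domain. Each of their intervals includes the list median. The lowest members were ZNF786, a KRAB gene, at 3.03-fold (1.91 to 4.60), ZNF148, which encodes the GC-box-binding regulator ZBP-89, at 3.29 (1.90 to 5.37), and ZNF326 at 3.33 (2.25 to 4.76). ZNF326 encodes a subunit of a complex that couples transcript elongation to splicing. Fold depends on background as well as fragments: ZNF326 had 28 fragments, as many as ZNF264 and ZNF358, but over a background of 7.71.

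**Figure D2:**
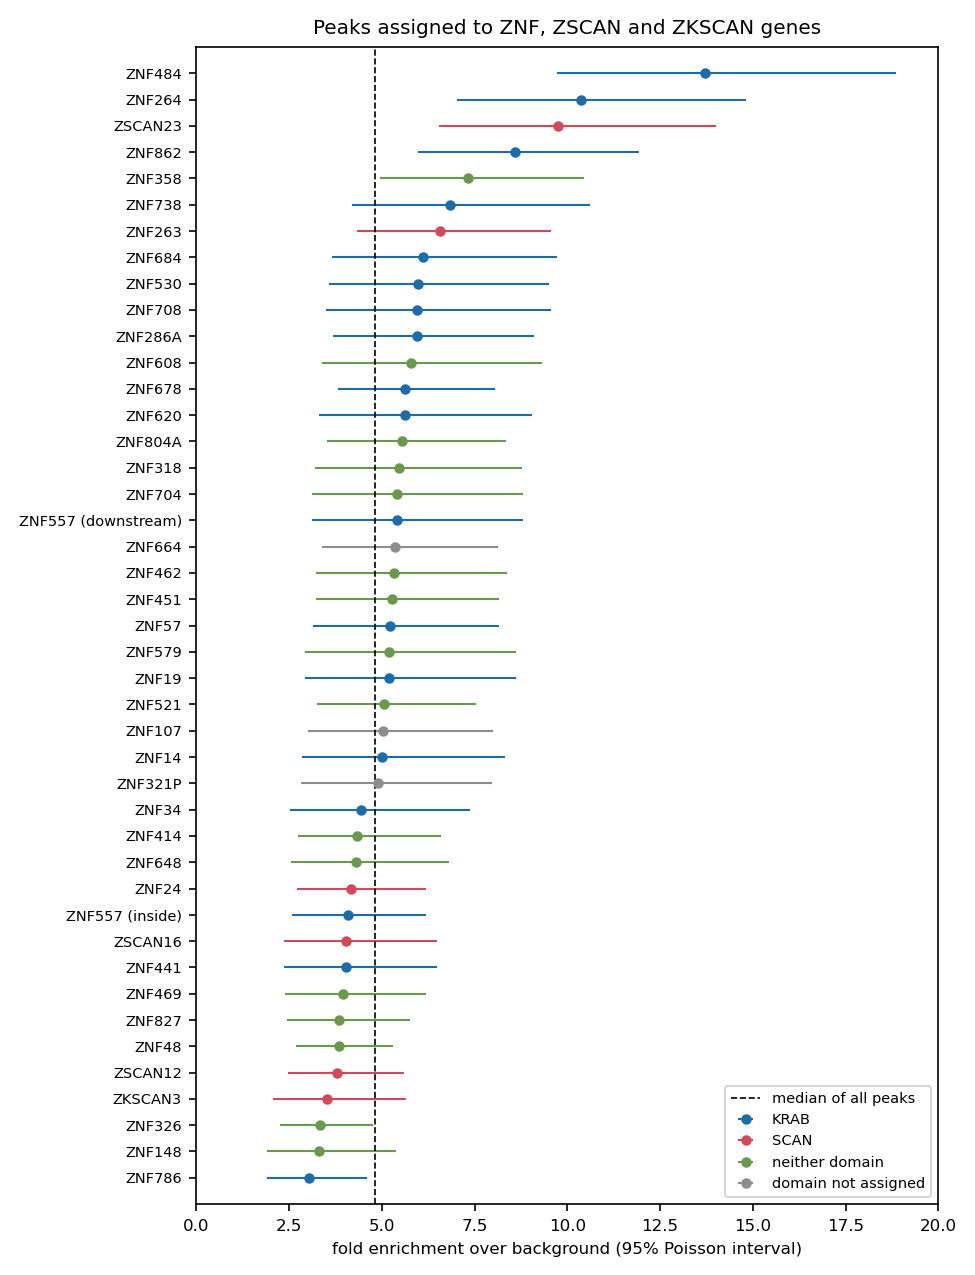
Fold enrichment of the 43 member peaks (points, linear axis) with 95% Poisson intervals, coloured by domain; the dashed line is the median of the whole list, 4.82. Only the 5 highest lie wholly to its right and only ZNF326 and ZNF786 wholly to its left.

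By domain, taken from general knowledge of these proteins and set after the values were known, 17 members encode KRAB proteins without a SCAN domain, 6 have a SCAN domain, 16 have neither and 3 were left unassigned. The KRAB group had a median of 5.63-fold (5.01 to 6.12, 18 peaks) and ran from 3.03 to 13.7. The SCAN group had a median of 4.11 (3.51 to 9.74, 6 peaks), and the group with neither a median of 5.12 (3.83 to 5.45, 16 peaks) and a highest value of 7.31. The 3 intervals overlap. Besides the KRAB genes named above, ZNF678 and ZNF620 reached 5.63-fold, ZNF57 5.21, ZNF19 5.19, ZNF14 5.01, ZNF34 4.44 and ZNF441 4.04. The unassigned ZNF664, ZNF107 and ZNF321P had 5.36, 5.04 and 4.88.

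The members with neither domain include genes with well-known roles outside transposon silencing. ZNF521, first found as the retroviral insertion site Evi3 in mouse leukaemia and a regulator of blood and neural progenitors, had a peak from 57 to 537 bp inside its start on chromosome 18 (5.05-fold, 3.24 to 7.53, 22 fragments). ZNF804A, known for its genetic association with schizophrenia, reached 5.55-fold (3.53 to 8.35). ZNF318, which controls the switch between IgM and IgD transcripts in B cells, had a peak 428 bp upstream of its start (5.45). ZNF462, a developmental regulator, had a peak across its start (5.34), and ZNF451, the gene of a SUMO ligase, one 3960 bp inside (5.26). ZNF827, whose product recruits the NuRD repressor complex to telomeres, reached 3.83, and ZNF469, the gene of brittle cornea syndrome, 3.95. The remaining genes of this group were ZNF704 (5.40), ZNF579 (5.19), ZNF414 (4.34), ZNF648 (4.29) and ZNF48 (3.83). ZNF24, a SCAN gene, reached 4.18.

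Peaks lay mostly just inside gene starts. By the deposited distance, 33 of the 43 peaks lay within 1000 bp of the gene start (76.7%, exact 95% interval 61.4 to 88.2), against 55.7% of the 3419 peaks of the list with an assigned gene. The annotation placed 26 inside the gene, 10 across the start (23.3%, 11.8 to 38.6, against 19.7% of the list), 4 upstream and 3 downstream. Among the 33 near peaks, the centre lay downstream of the start in 26 (78.8%, 61.1 to 91.0), and its median position was 254 bp into the gene. The same measures over the 1904 near peaks of the list were 68.0% and 198.5 bp. The interval for a downstream centre includes the list's value, while that for nearness to a start does not. The list also holds peaks assigned to genes without a symbol, however. Among peaks in the RefSeq span of family genes of 10 kb or more, 27 of 39 centres lay within 1000 bp of the start (69.2%, 52.4 to 83.0). For other protein-coding genes the share was 61.1%, which that interval includes.

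**Figure D3:**
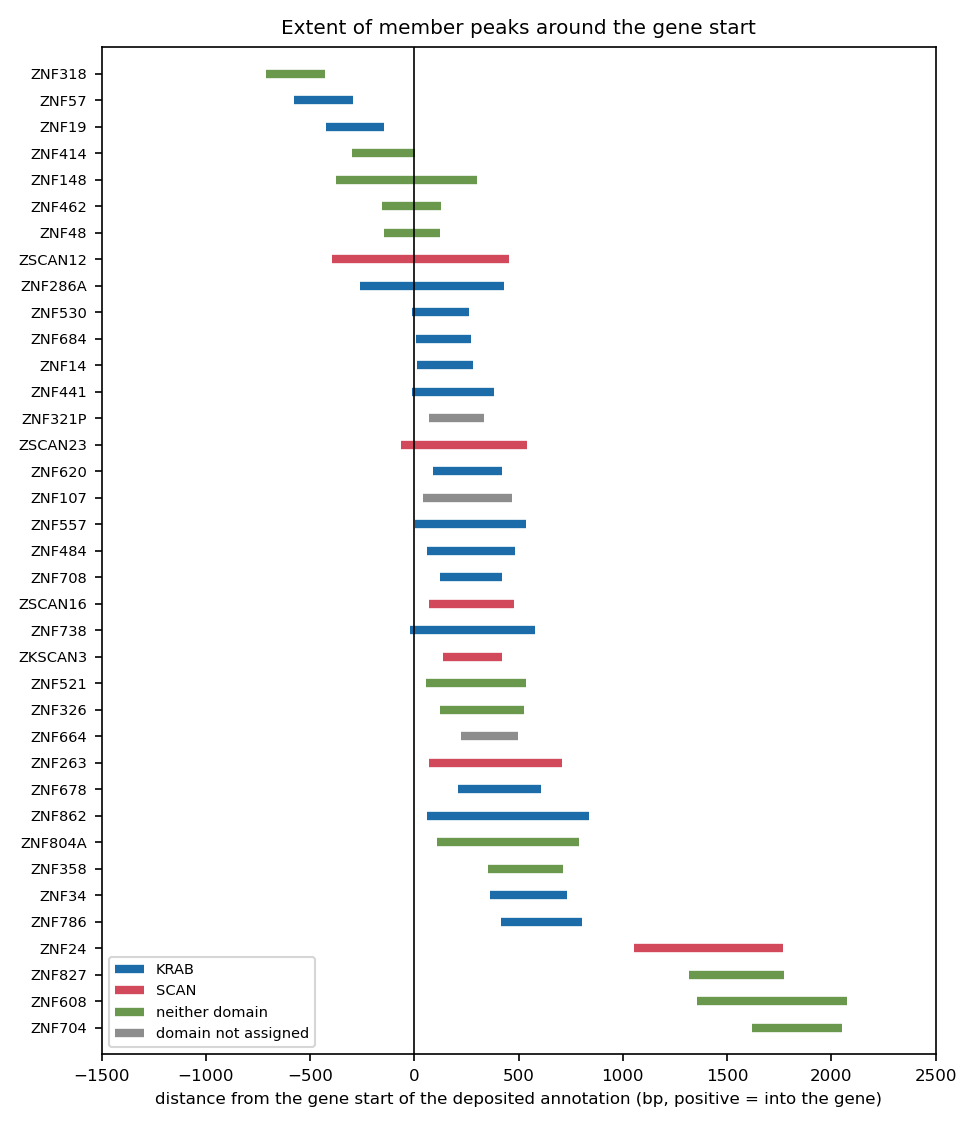
Each bar spans a member peak relative to its deposited gene start (0, vertical line; bp, positive into the gene), for the 37 of 43 peaks near enough to draw, coloured by domain. Most bars begin at or just after the start and end within about 1000 bp of it.

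The 6 highest peaks across a start were those of ZSCAN23 (9.74-fold), ZNF738 (6.84), ZNF530 (5.98), ZNF286A (5.93), ZNF462 (5.34) and ZNF414 (4.34), and the others belonged to ZNF441, ZNF48, ZSCAN12 and ZNF148. Within 1000 bp of the start lay 16 of the 18 KRAB peaks (88.9%, 65.3 to 98.6), 5 of the 6 SCAN peaks and 9 of the 16 peaks with neither domain (56.3%, 29.9 to 80.2); these intervals overlap. Peaks of ZNF608, ZNF704, ZNF24 and ZNF827 lay inside the gene with their nearest edge 1054 to 1619 bp from the start. Farther off by the nearest edge were ZNF469 (54880 bp upstream) and, downstream of the start, 1 peak of ZNF557 (37366 bp), ZNF648 (31422 bp) and ZNF579 (12700 bp).

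ZNF557, a KRAB gene on chromosome 19, was the only member with 2 assigned peaks. That at its start, chr19:7069446-7069980, reached 4.08-fold (2.57 to 6.19, 20 fragments). The other lay beyond the gene's end at 5.40-fold (3.11 to 8.81, 14 fragments). Their intervals overlap.

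Some assignments rest on the gene model. For 29 of the 34 member peaks with a RefSeq start region, the deposited and RefSeq starts lie within 1000 bp of each other. The peak of ZNF263 begins 72 bp inside the deposited gene but lies 19041 bp from the RefSeq start, and that of ZNF19 is 75911 bp from it. The peaks of ZNF48 and ZNF148 cross the deposited start but lie 82 and 345 bp from the RefSeq one. That of ZNF48 also overlaps the spans of MYL11 and SEPTIN1. In the other direction, the RefSeq start of ZNF24 lies inside its peak, and that of ZNF451 is 616 bp from its peak. Within 1000 bp by the nearest edge lay 27 of the 34 peaks under either set of starts. The deposited start of ZNF664 lies 1370 bp from the RefSeq one. A further peak at the latter (3.49-fold, 2.12 to 5.48) was assigned to RFLNA and the readthrough gene ZNF664-RFLNA. Near 9 member peaks another gene start lay within 1000 bp, of protein-coding genes in 2 of them, ZNF318 and ZNF664. These are lowest counts, as only genes with a RefSeq start region were searched, 15843 windows for 20056 protein-coding genes. Starts on the opposite strand lay 15 bp from that of ZNF684, 72 bp from ZNF148, 73 bp from ZNF19 and 85 bp from ZSCAN12, each of a non-coding RNA.

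Across the family, 41 of 536 protein-coding ZNF, ZSCAN and ZKSCAN genes in RefSeq were assigned a peak (7.65%, exact interval 5.54 to 10.2), against 9.92% of all 20056 protein-coding genes, which the interval includes. With only peaks at a −log10 q of at least 5 the share was 5.04% against 5.51% of protein-coding genes, and with only those at or above the list's median fold 5.04% against 5.03%. With only peaks across the gene start it was 1.87% against 2.37%. By prefix the 41 were 37 of 508 ZNF genes (7.28%), 3 of 21 ZSCAN genes and 1 of 7 ZKSCAN genes. Counted by any overlap with the RefSeq gene span, 45 family genes held a peak (8.40%, 6.19 to 11.1, against 11.4% of protein-coding genes). With the span widened by 1000 bp on each side there were 48 (8.96%, 6.68 to 11.7, against 13.7%), and by these counts the family's share was the lower. The median gene length was 23486 bp for the family and 24093 bp for all protein-coding genes. A part of gene length in these shares was not tested. Of the 48, 11 were assigned no peak of their own, the peak being assigned to another gene: ZSCAN26 (9.64-fold), ZNF566 (7.79), ZNF273 (5.92), ZNF536 (5.19), ZNF254 (4.82), ZNF217 (4.66), ZNF691 (4.04), ZNF654 (3.69), ZSCAN31 (3.51), ZNF775 (3.46) and ZNF503 (2.96). The peak of ZSCAN31 is the one assigned to ZKSCAN3, whose span overlaps it. In family genes of 10 kb or more, 3 of 39 peaks in the span had their centre in its last 25%, in ZNF503, ZNF48 and ZNF469 (7.69%, 1.62 to 20.9), against 5.22% in other protein-coding genes. That in ZNF48 is a further peak, assigned to SEPTIN1. That in ZNF469 is the member peak described above as upstream: the RefSeq gene starts before the deposited one, and the peak centre lies 271425 bp into it.

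Chromosome 19 held 253 of the 536 family genes (47.2%) but 12 of the 42 members (28.6%, 15.7 to 44.6; 11 protein-coding). There 11 of 253 family genes were assigned a peak (4.35%, 2.19 to 7.65), against 30 of 283 elsewhere (10.6%, 7.27 to 14.8) and 85 of 1198 other protein-coding genes of chromosome 19 (7.10%, 5.71 to 8.70). These intervals overlap, and family genes in 1 cluster are not independent, so the difference was not tested. The share of family genes elsewhere lay near the 9.92% of all protein-coding genes, chromosome 19 included, which its interval includes. The sources used here do not say how reads matching several near-identical copies were treated. A stretch of 50 bases shared with another gene's start region occurred in 2.70% of family windows on chromosome 19, 2.16% of those elsewhere and 3.90% of all protein-coding ones. It occurred in 2 members, ZNF107 and ZNF286A; a part of copies in the values was not tested. On 7 chromosomes, with 58 family genes, no member was found.

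**Figure D4:**
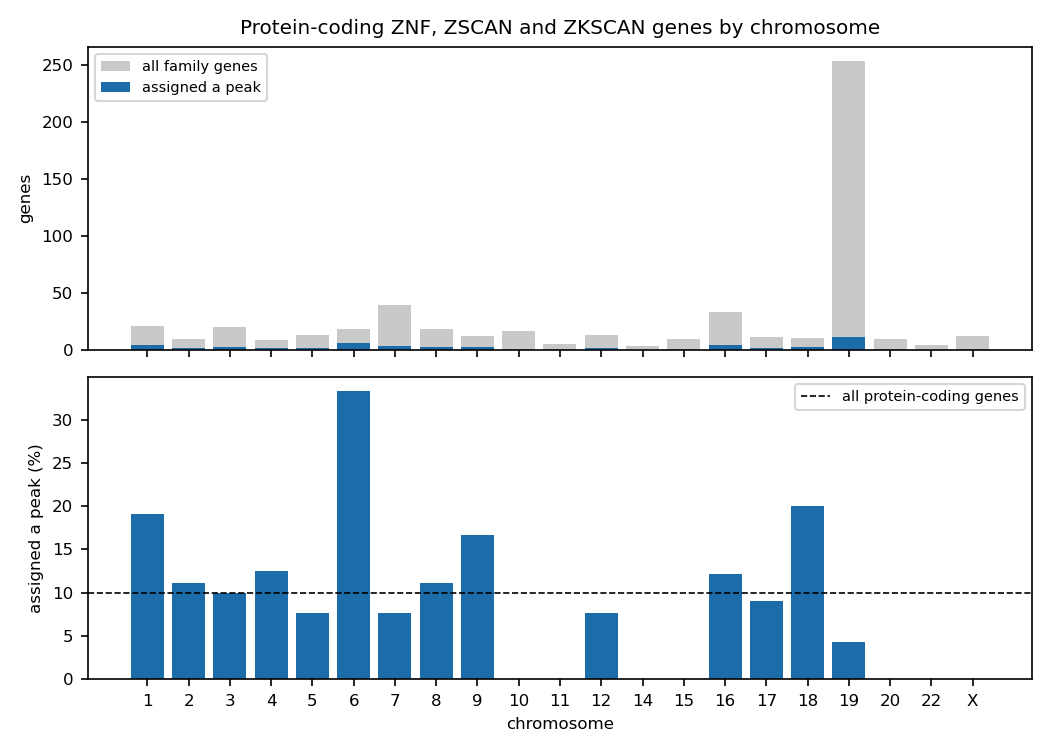
Protein-coding ZNF, ZSCAN and ZKSCAN genes by chromosome: number in RefSeq and number assigned a peak (top), and the share assigned a peak in % (bottom) with the share of all protein-coding genes, 9.92%, dashed. Chromosome 19 has more of the genes than any other chromosome and a share of 4.35%, while chromosome 6 has 6 of 18.

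On chromosome 6, 6 of 18 family genes were assigned a peak (33.3%, 13.3 to 59.0), against 157 of 1031 other protein-coding genes of that chromosome (15.2%, 13.1 to 17.6) and 9.92% of all. The first 2 intervals overlap. Of the 6 genes 4, ZSCAN16, ZKSCAN3, ZSCAN12 and ZSCAN23, lie in 1 cluster. From 28080282 to 28443491 the cluster holds 10 family genes, all but ZNF165 named ZSCAN or ZKSCAN, and 5 peaks of the list. With ZSCAN26 and ZSCAN31, 6 of the 10 had a peak in the span widened by 1000 bp, where 13.7% of all protein-coding genes did, but the cluster was singled out after its peaks were seen. The genes ZNF165, ZKSCAN8, ZSCAN9 and ZKSCAN4 had none. ZSCAN16 reached 4.04-fold (2.37 to 6.49), ZSCAN12 3.79 (2.46 to 5.60) and ZKSCAN3, a SCAN and KRAB protein known as a repressor of autophagy genes, 3.51 (2.06 to 5.65). The interval of ZSCAN23 (6.54 to 14.02) lay above all 3. The starts of ZSCAN12 and ZSCAN23 are 43.8 kb apart, and that of ZKSCAN3 is 49.8 kb from ZSCAN12. The only other members with starts within 100 kb of each other were the KRAB genes ZNF708 and ZNF738 on chromosome 19, 29.5 kb apart, at 5.93-fold (3.48 to 9.55) and 6.84-fold (4.20 to 10.6).

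Start regions in RefSeq were matched for 33 of the 42 members, and 16 of these windows overlapped a peak. Of all 453 family windows, 19 did (4.19%, 2.54 to 6.47), against 5.81% of 15843 protein-coding windows. The GATA-like core AAGATAA occurred in 3 of the 33 member windows, those of ZSCAN12, ZNF57 and ZNF107 (9.09%, 1.92 to 24.3). It occurred in 4 of 420 family windows without an assigned peak (0.95%, 0.26 to 2.42) in 10 of the 902 windows of other genes that overlapped a peak (1.11%, 0.53 to 2.03) and in 2.405% of all protein-coding windows. Only in ZSCAN12 did it lie inside the peak. The count is 3 windows, and no test was made. The second-domain core GATGAG was in 9.09% of member windows, 10.5% of those 902 and 9.89% of all, and the ETS core GGAAGT in 33.3% (17.96 to 51.8), against 39.5% of family windows without a peak, 29.2% of the 902 and 24.8% of all. The Kaiso palindrome was in 2 member windows, ZNF286A and ZNF414, and in 1 of the 420 family windows without a peak, against 0.78% of the 902 and 0.67% of all. AAGATGGC was in 1 member window, that of ZNF318, and 3.91% of all, and the NRF1 motif in none and 1.75%. Median GC content was 61.7% in member windows and 62.7% in all, with 22 CG dinucleotides in both. It was 66.0% with 27 CG in the 902 windows of other genes that overlapped a peak.

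A shared element stood before the starts of several members and was searched for after the windows had been read. CCAATCAGG occurred in 7 of 33 member windows (21.2%, 8.98 to 38.9) and 57 of 420 family windows without a peak (13.6%, 10.4 to 17.2), but in 1.55% of all protein-coding windows. Both family shares, with and without a peak, lay above that of all genes. The last 100 bases before the starts of ZNF107 (chr7:64666033-64666132, plus strand), ZNF14 (chr19:19733113-19733212, minus strand) and ZNF441 (chr19:11766900-11766999, plus strand) show it, and in each the element lay outside the peak, which began nearer to or beyond the start.
ZNF107: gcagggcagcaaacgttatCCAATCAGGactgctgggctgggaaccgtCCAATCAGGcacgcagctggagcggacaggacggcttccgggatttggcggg
ZNF14: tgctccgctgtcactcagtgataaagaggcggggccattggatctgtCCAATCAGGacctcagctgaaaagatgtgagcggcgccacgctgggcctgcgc
ZNF441: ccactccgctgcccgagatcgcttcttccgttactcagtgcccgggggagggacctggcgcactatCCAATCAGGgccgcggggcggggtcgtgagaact
The other 4 members with the element were ZNF862, ZNF708, ZNF678 and ZNF57. Of the 7 members with it, 6 are in the KRAB group and ZNF107 was left unassigned.

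**Figure D5:**
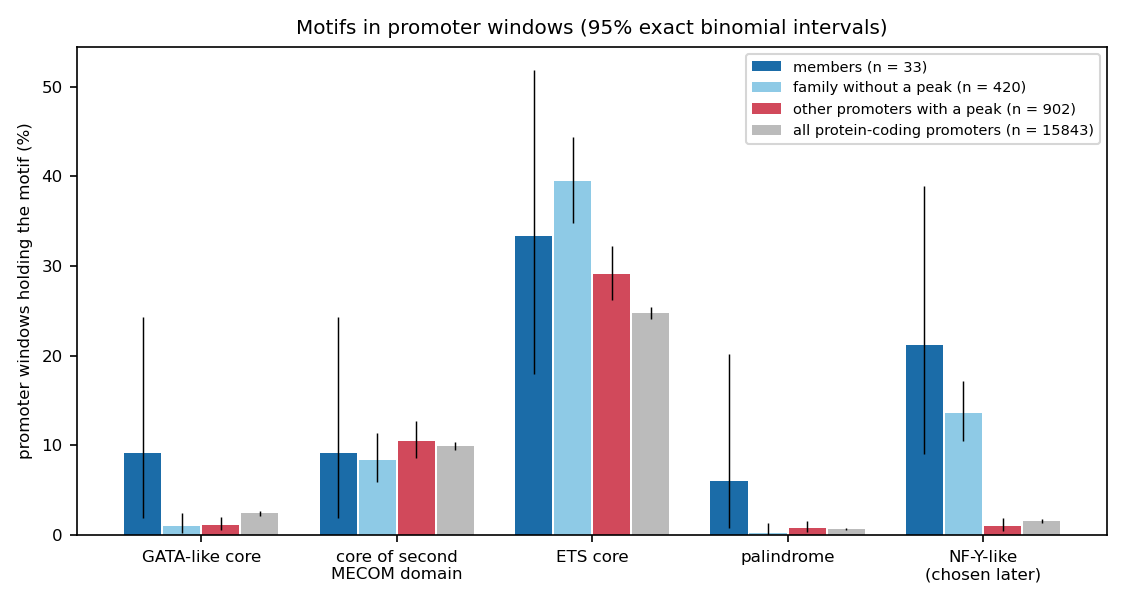
Share of RefSeq start regions holding each motif (%, bars from 0, 95% exact binomial intervals) for 33 members, 420 family genes without an assigned peak, 902 other genes with a peak over the window, and all 15843 protein-coding genes. Member intervals are wide, and only 16 of the 33 member windows overlap a peak. The NF-Y-like element is at 21.2% and 13.6% in the family and 1.55% overall.

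Of 26 genes on a list of the machinery through which KRAB proteins silence chromatin, 4 were assigned a peak (15.4%, 4.36 to 34.9), an interval that includes the 9.92% of protein-coding genes. MPHOSPH8, a subunit of the HUSH silencing complex, had a peak 118 bp inside its start (5.28-fold, 3.04 to 8.61), and TRIM24, a relative of TRIM28, one 49 bp inside (3.79, 2.46 to 5.60). The NuRD helicase gene CHD4 had a peak at -6603 bp from its start, which is upstream (5.93, 3.48 to 9.55), and that assigned to TASOR, another HUSH subunit, lay at -118304 bp (5.04). TRIM28 and SETDB1 had none. Among other zinc finger names, 8 of 41 ZBTB genes (19.5%, 8.82 to 34.9) and 5 of 30 KLF and SP genes (16.7%, 5.64 to 34.7) were assigned a peak. For ZC3H genes it was 6 of 21 (28.6%, 11.3 to 52.2). The counts were 1 of 19 for ZFP, 1 of 24 for ZDHHC, 1 of 9 for ZSWIM and 0 of 6 for ZMYM. Only the ZC3H interval lay wholly above the 9.92% of all protein-coding genes, among several names looked at and without a test.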

How the data were processed

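ChIP-seq peaks of 1 library, HEK293T with AM-tagged wild-type MECOM, were used; the list is tied to that library by its genotype name. Per the submitters' processing notes, the build was hg38 and the tools included MACS2 2.1.1.20160309.6, Bowtie2 2.4.2 and ChIPseeker 1.18.0, with no role stated. The deposited table has no header: its fold enrichment is a ratio, its −log10 p-value and its −log10 q are the peak caller's, its score is 10 times the −log10 q cut to a whole number, and widths and distances (other columns) are in bp. Gene starts and classes are the authors'. For all 3462 peaks 1 whole number of fragments and 1 background gave the deposited fold and −log10 p. The match was within 0.001, or a share of 1e-05 where −log10 p exceeded 1000. The method was tested on simulated data in a range that held the member peaks but not the strongest peaks of the list. The sources used here do not give the total reads.

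Of 2286 symbols, 2249 matched RefSeq (GRCh38.p14). Intervals are 95% Poisson, exact binomial (Clopper-Pearson) or order-statistic intervals and cover counting error only. No test between groups or peaks was made. Members, motifs and lists were chosen with earlier results of these data known. Named genes were the 12 highest members, the 6 highest across a start, members with 2 peaks, ZSCAN and ZKSCAN members, the 3 lowest, and neighbours within 100 kb, with all others by value; 1 gene of the name pattern is not reported here. Zinc finger counts per protein were planned and not run, as protein sequences were not used here. No value column lacked a sample (0). Python 3.11.15, pandas 2.3.3, numpy 2.4.6, scipy 1.17.1 and matplotlib 3.10.9 were used.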

Additional observations from a re-analysis of the deposited data

How the results depend on the processing

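Of 27 alternative settings over the shares, the median fold and the motif shares, 21 gave a value inside the main interval and 6 moved. The share of the family assigned a peak (7.65%) was 5.04% with −log10 q of at least 5, 5.04% among the higher peaks by fold, 1.87% with peaks across the start only and 10.6% without chromosome 19; the first 3 keep fewer peaks (5.51, 5.03 and 2.37% of protein-coding genes under the same settings) and the last fewer genes. The median fold (5.21) was 5.63 at the stricter q, where that of the list was 5.58, and 6.92 as fragments over background without the added 1, where the list gave 6.32. Settings with the highest peak per gene, merged neighbours, 500 and 2000 bp, RefSeq starts, gene spans and wider names left values inside the intervals. Zinc finger counts and their alternative could not be had. No paired analysis was possible because only the wild-type list, from 1 library, entered. With a median of 17 fragments, most members cannot be ranked against each other.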
